A study of Mus musculus with 7 samples.

Results

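Fibroblasts from tenascin-C knockout mice were compared with wild-type fibroblasts over every gene that could be named on the array, with attention to well-expressed genes whose differences were moderate in size. Both groups are spontaneously immortalised mouse embryonic fibroblasts: 3 wild-type clones and 2 clones from a tenascin-C knock-out mouse, each plated at 50000 cells per well and grown for 2 days in medium with fetal calf serum, with no treatment. Another 2 clones, wild-type fibroblasts that stably carry an shRNA against tenascin-C, entered the model fit to estimate the spread but are not compared here. Each clone gave 1 array, and no label ties the clones to different animals, so every p-value rests on clone-to-clone spread, part of which may be technical. Sex-linked genes differed between the 2 knockout clones, as given below. Of 34760 probe sets, 21640 carried a single gene symbol and gave 19937 genes, each taken at its probe set of highest mean. Of these, 16801 were bright enough to be tested, and 7233 of the tested genes had a mean log2 signal above 7 over the 7 arrays and are called well-expressed below. That mean takes in the knockout arrays, so a gene can meet or miss the limit through its knockout values. Counts of well-expressed genes that lay higher or lower are therefore not independent of the difference itself.

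Tenascin-C is a large six-armed glycoprotein of the extracellular matrix, made by embryonic and wound fibroblasts and by few adult tissues. It binds fibronectin and several integrins and is known for loosening cell adhesion. Spontaneously immortalised fibroblasts have passed a growth crisis in culture and commonly carry altered chromosome numbers. In this design the deleted gene and the history of the knockout clones cannot be told apart.

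The arrays matched their labels as fibroblasts, and knockout array 2 stood apart from the other knockout and wild-type arrays in sex-linked genes. Over all probe sets it correlated with the other arrays at 0.9794 to 0.9848, and knockout array 1 did so at 0.979 to 0.9849. None of the 12 fibroblast markers lay below the array median on all 5 arrays, and the intermediate filament gene Vim was the brightest, at a mean log2 signal of 12.75. Lum, a proteoglycan of collagen fibrils, was uneven, at 5.06, 9.26 and 9.13 on the wild-type arrays and 5.76 and 4.17 on the knockout arrays. The summed linear signal of the 12 markers ran from 26200 to 36300 on the wild-type arrays and from 38800 to 39800 on the knockout arrays. Endothelial markers summed to 153 to 180 and 160 to 161, and macrophage and blood markers to 173 to 191 and 188 to 200, with 5 of 6 and 5 of 7 members below the median of all 5 arrays. Epithelial markers summed to 493 to 584 in wild type and to 241 to 561 in knockout, where 5 of 7 members lay below the median of all 5 arrays and the keratin Krt19 stood at 8.45 on knockout array 1 and 4.87 on knockout array 2. Pericyte markers reached 364 to 521 in wild type, 979 on knockout array 1 and 359 on knockout array 2. Other lists had fewer members below the median of all 5 arrays. They were 3 of 6 skeletal muscle, 2 of 5 neural and glial, 1 of 5 adipocyte and 2 of 4 cartilage and bone markers. The cartilage and bone markers summed to 629 to 745 in wild type and 499 to 558 in knockout, with Sox9 the brightest at 8.73. Xist, the noncoding RNA of X inactivation, stood at 8.80 on knockout array 2 and at 3.77 or less on the other arrays. The Y-linked Uty stood at 3.14 on knockout array 2 against 6.75 to 7.77 on the other knockout and wild-type arrays. On the knockdown arrays, used in the fit, Uty stood at 8.02 and 4.98. By these genes knockout array 2 looked female and knockout array 1 and the 3 wild-type arrays male, so the knockout pair does not look like cells of 1 embryo. The part of these differences between clones in the results was not tested, and values without knockout array 2 are given where they move a result by over 1.5 times.

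The targeted gene was lower in the knockout clones. Tnc gave log2 signals of 10.89, 11.42 and 11.38 on the wild-type arrays and of 8.05 and 8.51 on the knockout arrays. The groups did not overlap, and Tnc fell 7.71-fold (log2 change -2.95 ± 0.295 SE, adjusted p = 0.042). The call rested on all 7 arrays: with any single array left out the adjusted p lay between 0.0742 and 0.164, while the change stayed between -3.17 and -2.72. The sources used here do not place the probe set inside or outside the deletion, so the remaining signal is no measure of intact transcript.

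Few genes passed the test. Of the 16801 tested genes 28 were called (0.167%), 20 that rose (0.119%) and 8 that fell (0.0476%), and of the 7233 well-expressed genes 8 were called (0.111%), 5 that rose (0.0691%) and 3 that fell (0.0415%). With the arrays centred on their medians the calls were 61 higher and 10 lower, and among well-expressed genes 28 and 4. The count of well-expressed calls was 0 without wild-type array 3, with 1740 tested genes then at an unadjusted p under 0.05 in limma. It was 2 without wild-type array 2 or without either knockdown array, 5 without wild-type array 1, 6 without knockout array 1 and 32 without knockout array 2. Beneath them, 1359 well-expressed genes had an unadjusted p under 0.05 (18.8%), 869 higher (12%) and 490 lower (6.77%).

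The other 2 well-expressed genes that fell did so by large amounts. Avpr1a, a receptor for vasopressin, gave 8.96, 8.37 and 8.49 in wild type and 5.13 and 5.76 in knockout, a fall of 8.98-fold (log2 change -3.17 ± 0.241 SE, adjusted p = 0.0187). Mr1, a class I-like molecule that presents vitamin B metabolites to T cells, gave 7.57, 7.74 and 7.35 in wild type and 5.58 and 4.81 in knockout and fell 5.14-fold (-2.36 ± 0.237 SE, adjusted p = 0.042). For both genes the knockout arrays lay more than 1 log2 unit below the lowest wild-type array.

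The 5 that rose did so by smaller amounts with little spread. Grina, a membrane protein of the endoplasmic reticulum and Golgi, stood at 8.83, 8.88 and 8.86 in wild type and at 10.07 and 10.11 in knockout, a rise of 2.35-fold (1.23 ± 0.0659 SE, adjusted p = 0.00545). Tmem184b gave 8.91, 8.91 and 8.77 against 9.71 and 9.85, a rise of 1.88-fold (0.91 ± 0.0842 SE, adjusted p = 0.0317). Samd4, an RNA-binding repressor of translation, gave 7.83, 7.91 and 7.74 against 8.69 and 8.62, a rise of 1.77-fold (0.83 ± 0.0847 SE, adjusted p = 0.0433). Cers5, a ceramide synthase, and Lima1, a protein that bundles actin filaments, rose 1.69-fold and 1.57-fold (adjusted p = 0.042 and 0.0452). In each of these genes the wild-type arrays spanned less than 0.2 log2 units and the knockout arrays lay apart from them. At changes of this size a small spread is what the test picks, so neither trait is further support. With only the knockout and wild-type arrays in the limma fit, Grina had an adjusted p of 0.0491 and the others 0.112. All 5 but Samd4 are genes of chromosome 15.

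**Figure D1:**
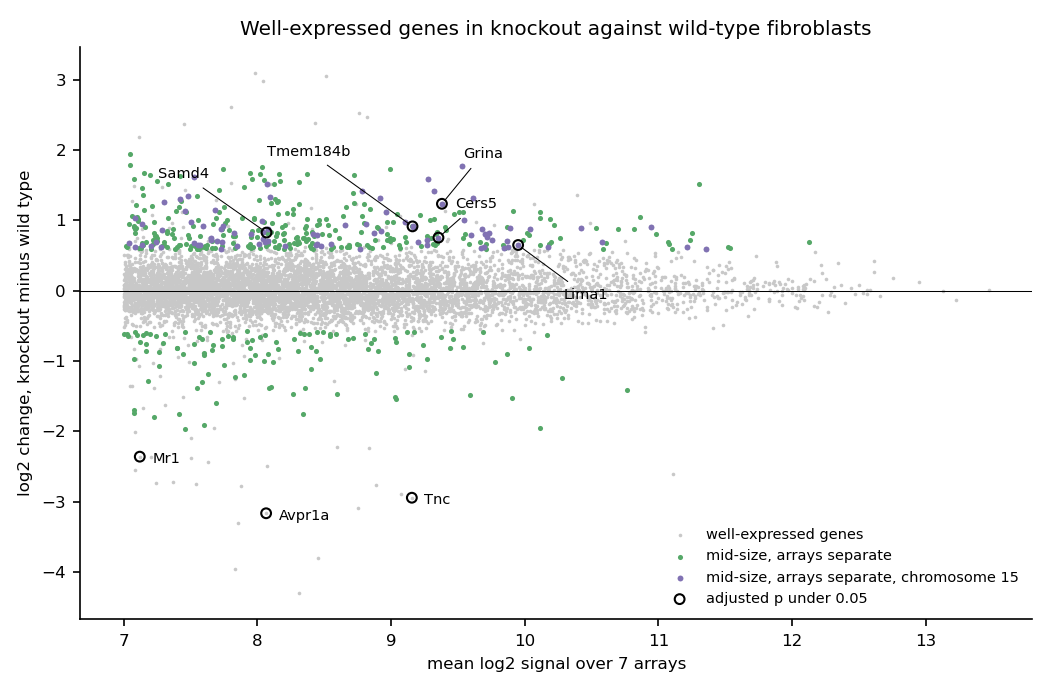
Log2 change (knockout minus wild type) against mean log2 signal over 7 arrays for the 7233 well-expressed genes. Green and purple points are the 474 mid-size genes whose arrays did not overlap, purple for chromosome 15, and open circles are the 8 called genes; 359 mid-size points lie above 0 and 115 below.

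Changes of moderate size ran mostly upward. Among well-expressed genes, 474 (6.55%) had a log2 change between 0.58 and 2 in size (1.49-fold to 4-fold) and both knockout arrays outside the range of the wild-type arrays on the same side. Of these, 359 lay higher in knockout (4.96% of well-expressed genes) and 115 lower (1.59%). Their median absolute log2 change was 0.80. Without knockout array 2, where 1 knockout array has to lie outside the wild-type range, the count was 751, 478 higher and 273 lower. At any size of change, 1519 well-expressed genes had both knockout arrays above all wild-type arrays (21%) and 1182 had both below (16.3%). A further 29 well-expressed genes with separate arrays differed by more than 4-fold, 8 higher and 21 lower. At the edge of the well-expressed class, Pdpr with a mean of 6.9995 was just outside it and Rgs12 with 7.0003 just inside.

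The mid-size genes of smallest p that lay higher in knockout covered signalling, membrane and metabolic enzymes, and besides the 5 called genes none passed the test. Dusp1, a phosphatase that switches off MAP kinases, gave 9.22, 9.20 and 9.22 in wild type and 10.21 and 10.43 in knockout (log2 change 1.11 ± 0.122 SE, adjusted p = 0.0502). Eno3, the muscle form of the glycolytic enzyme enolase, gave 7.91, 8.14 and 8.36 against 10.03 and 9.52 (1.64 ± 0.197 SE, adjusted p = 0.0599). Ero1a, the oxidase that drives disulfide bond formation in the endoplasmic reticulum, gave 8.88, 8.98 and 8.71 against 9.80 and 9.87 (0.98 ± 0.12 SE, adjusted p = 0.0606). That these groups of arrays did not overlap follows from how mid-size genes were chosen. Gaps that are large against the spread follow from naming those of smallest p. Ano6, a calcium-activated phospholipid scramblase, and Desi1, an enzyme that removes SUMO from proteins, stood 0.82 and 0.81 higher, and Tspo, a protein of the outer mitochondrial membrane, 1.01 higher. Adcy6, an adenylyl cyclase, stood 0.98 higher, Uap1l1 1.08, the homeodomain protein gene Cux1 0.68 and Tnrc6b, a scaffold of microRNA silencing, 0.63 higher. Ano6, Desi1, Tspo, Adcy6 and Tnrc6b are genes of chromosome 15.

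Those that lay lower included chromatin factors, polarity scaffolds and a sensor of viral RNA, and none passed the test. Ddx58, which encodes the RNA sensor RIG-I, gave 8.19, 8.13 and 8.09 in wild type and 6.69 and 7.21 in knockout (log2 change -1.19 ± 0.152 SE, adjusted p = 0.0668). Meis2, a homeodomain cofactor of Hox proteins, gave 9.26, 9.77 and 9.29 against 8.004 and 7.784 (-1.54 ± 0.207 SE, adjusted p = 0.0686). Car13, a cytosolic carbonic anhydrase, gave 10.52, 10.12 and 10.10 against 8.85 and 8.60 (-1.52 ± 0.244 SE, adjusted p = 0.0927). That every knockout array of these genes lay below every wild-type array follows from how mid-size genes were chosen. The scaffold genes Mpp7 and Cask, whose products hold polarity and synaptic complexes, stood at changes of -1.60 and -0.82. Kdm3b, a histone H3 lysine demethylase, stood at -0.69, Sap130, a subunit of the Sin3 deacetylase complex, at -0.62, and Tada1, a subunit of the SAGA coactivator, at -0.91. Receptor partners were also among them: Neto2, which binds kainate receptors, stood at -1.91 and Kctd12, which binds GABA-B receptors, at -0.81. The metabolic genes Me2, a mitochondrial malic enzyme, and Aldh7a1, an enzyme of lysine breakdown, stood at -0.58 and -0.85, and the cAMP phosphodiesterase Pde7a at -0.69, the lipid flippase Atp10a at -0.79 and Tpgs2, a subunit of a tubulin-modifying enzyme, at -0.83. Kdm3b, Me2, Tpgs2, Sap130, Mpp7 and Aldh7a1 are genes of chromosome 18.

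**Figure D2:**
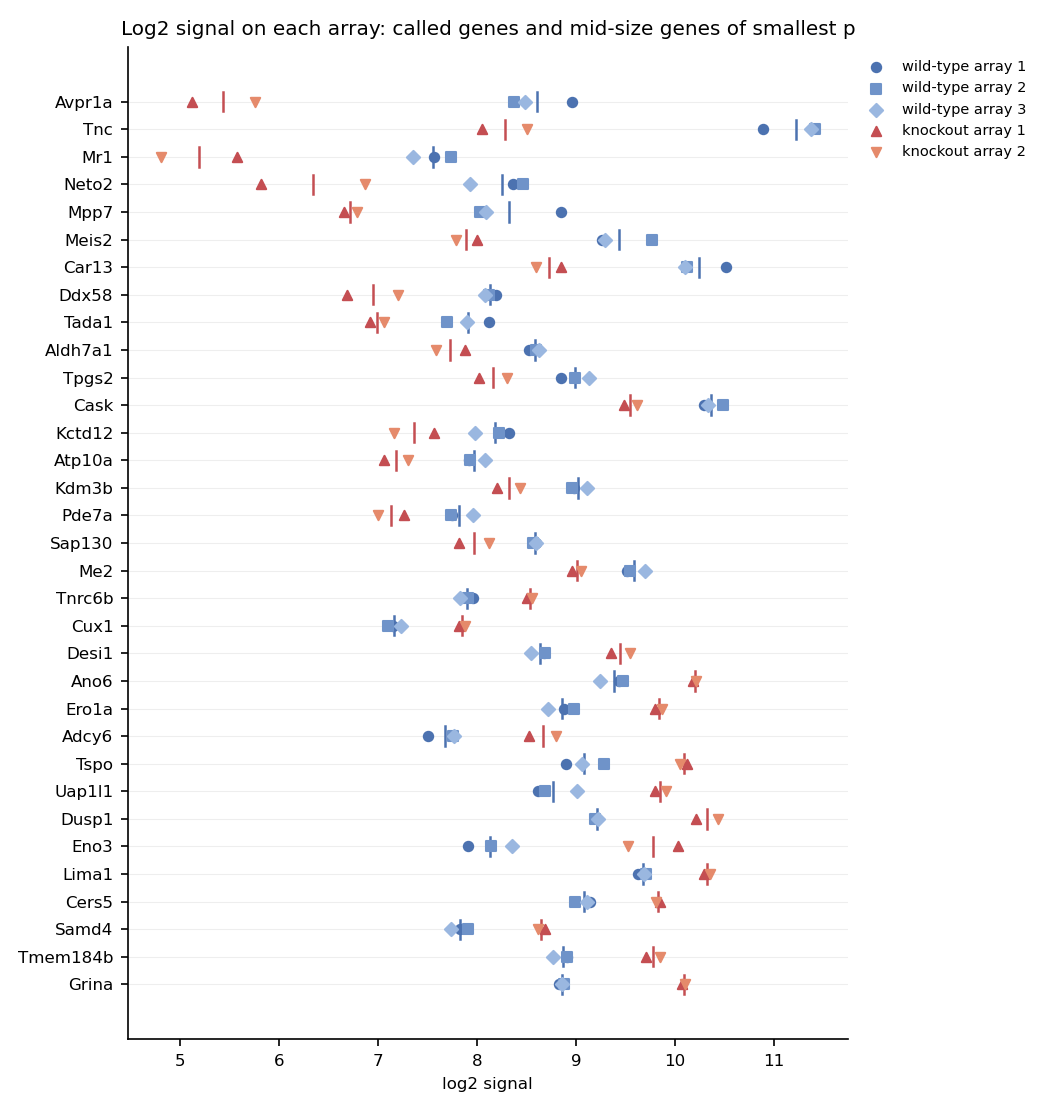
Log2 signal on each array for the 8 called well-expressed genes (3 lower at the top, 5 higher at the bottom) and, between them, the mid-size genes of smallest p ordered by change. Blue symbols are the 3 wild-type arrays, red and orange symbols the 2 knockout arrays and short lines the group means. In each gene the knockout symbols lie all above or all below the wild-type symbols. For mid-size genes this follows from how they were chosen, and in called genes it goes with passing the test.

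Chromosome of origin moved with these differences. The 303 well-expressed genes of chromosome 15 had a median log2 change of 0.48, and 254 of them (83.8%) had both knockout arrays above all wild-type arrays, against 21% of all well-expressed genes. The 200 of chromosome 18 had a median of -0.26, with 115 (57.5%) separate and lower, and the 268 of chromosome 19 a median of 0.29, with 135 (50.4%) separate and higher. Chromosome 15 holds 4.19% of well-expressed genes but 87 of the 359 mid-size genes that lay higher (24.2%), and chromosome 18 holds 2.77% but 15 of the 115 that lay lower (13%). The shift of chromosome 15 was seen on both knockout arrays, at a median of 0.38 and 0.58 above the wild-type mean, whereas that of chromosome 19 was 0.13 on knockout array 1 and 0.44 on knockout array 2. Smaller shifts were seen elsewhere: the median of chromosome 5 was -0.20, with 32.1% of its well-expressed genes separate and lower, and 35.3% on chromosome 16 and 34.8% on chromosome 13 were separate and higher. Outside chromosomes 15, 18 and 19, 244 mid-size genes lay higher and 99 lower, and the median of 6462 well-expressed genes was -0.01. With the genes of those chromosomes left out of the test, an alternative chosen after seeing the data, 3 well-expressed genes were called, the 3 that fell, and Samd4 had an adjusted p of 0.0505. On the 2 knockdown arrays the median of chromosome 15 stood at 0.124 and 0.275 against the wild-type mean. That of chromosome 18 stood at 0.19 and 0.17 there, and that of chromosome 19 at 0.20 and -0.04. Copy number was not measured here, and its part in these differences was not tested.

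**Figure D3:**
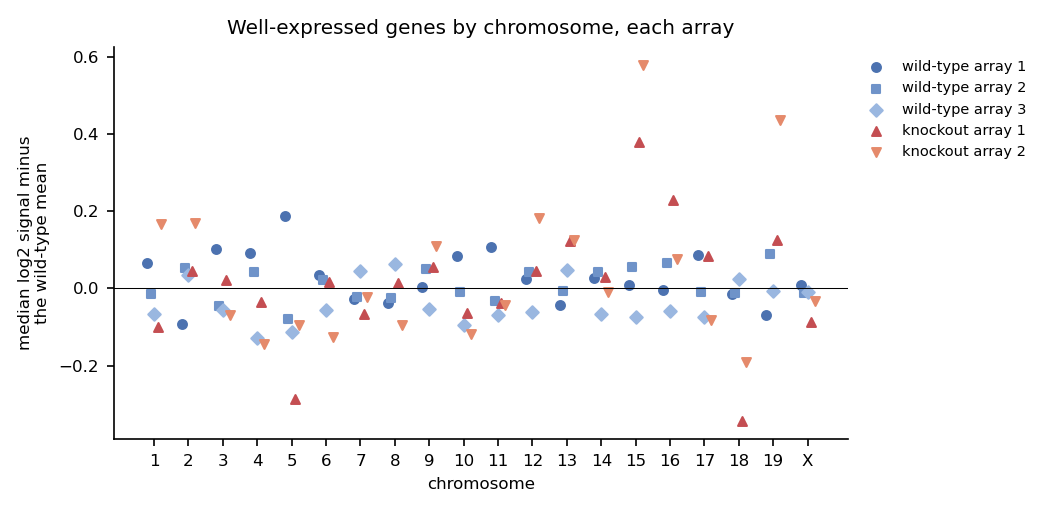
Median over the well-expressed genes of each chromosome of the log2 signal minus the gene's wild-type mean, 1 symbol per array. The wild-type arrays lie between -0.13 and 0.19 on every chromosome, and both knockout arrays lie above 0.37 on chromosome 15 and below -0.19 on chromosome 18.

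Genes of the amino acid response lay higher in knockout with few exceptions. When amino acids run short or unfolded proteins build up, kinases phosphorylate the translation factor eIF2, and the transcription factor ATF4 is then made from its messenger RNA and switches on genes for amino acid synthesis, transport and stress control. Of 34 well-expressed genes of this list, 33 lay higher in knockout and 1 lower, and the median was 0.55 in log2 units against 0.01 for all well-expressed genes. In 24 of the 34 (70.6%) both knockout arrays lay above all wild-type arrays and in none below, beside 21% and 16.3% of all well-expressed genes. No member passed the test over all genes, with adjusted p from 0.0668 to 0.86 among well-expressed members, and 24 of the 39 tested had an unadjusted p under 0.05, all of them higher, beside 7.33% higher and 5.5% lower among all tested genes. The list's median was 0.49 without chromosomes 15, 18 and 19, 0.41 without knockout array 1 and 0.64 without knockout array 2.

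Stretches before the start sites of 4 of its members are shown, because they hold the letters TGATGNAA, the core of the element that ATF4 and its partners are known to bind. They are RefSeq sequences of assembly GRCm38.p6, the 250 bases before the annotated start, 5′ to 3′ on the gene's strand, with each match on either strand in capitals: Asns at chr6:7693210-7693459 (minus strand), Nupr1 at chr7:126625471-126625720 (minus strand), Chac1 at chr2:119350992-119351241 (plus strand) and Jdp2 at chr12:85599166-85599415 (plus strand), whose table holds 3 starts and 1 is shown.
Asns: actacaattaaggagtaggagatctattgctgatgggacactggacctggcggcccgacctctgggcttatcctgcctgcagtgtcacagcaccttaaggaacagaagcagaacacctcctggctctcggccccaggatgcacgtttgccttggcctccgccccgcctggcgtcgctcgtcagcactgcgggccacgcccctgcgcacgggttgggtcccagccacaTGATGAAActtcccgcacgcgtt
Nupr1: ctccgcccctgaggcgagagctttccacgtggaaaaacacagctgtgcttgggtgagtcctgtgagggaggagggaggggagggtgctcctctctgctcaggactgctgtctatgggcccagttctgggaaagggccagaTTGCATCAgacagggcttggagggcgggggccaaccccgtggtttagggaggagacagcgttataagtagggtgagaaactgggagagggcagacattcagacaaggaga
Chac1: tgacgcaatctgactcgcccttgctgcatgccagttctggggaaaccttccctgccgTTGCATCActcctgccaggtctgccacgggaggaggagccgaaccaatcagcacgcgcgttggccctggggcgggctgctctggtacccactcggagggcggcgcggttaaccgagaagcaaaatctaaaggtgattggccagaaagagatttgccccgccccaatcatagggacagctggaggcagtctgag
Jdp2: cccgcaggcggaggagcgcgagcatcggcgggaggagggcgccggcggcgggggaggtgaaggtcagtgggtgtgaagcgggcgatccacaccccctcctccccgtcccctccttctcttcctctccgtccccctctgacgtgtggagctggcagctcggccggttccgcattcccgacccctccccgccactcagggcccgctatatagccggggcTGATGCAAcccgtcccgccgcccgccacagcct
The matches begin 23, 110, 193 and 33 bases before the start. Of the 34 members with a promoter sequence, 7 (20.6%) held the letters in this window, against 3.45% of all 32851 windows of the same length and 2.64% of tested genes. All 7 lay higher in knockout, 5 of them with separate arrays, with a median change of 0.87. The 27 members without a match had a median of 0.41, and 17 of them had both knockout arrays above wild type. Among all tested genes 13.2% did, and 36 of the list's 39 tested members lay higher. A match is a description of the letters and shows no binding. The list was made of genes of this response, so a high share of matches goes with its choice.

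Regulators of the response were among its largest differences. Nupr1, a small stress-induced chromatin protein, gave 7.23, 7.73 and 7.29 in wild type and 9.17 and 9.02 in knockout (log2 change 1.68, adjusted p = 0.0686). Trib3, a pseudokinase that restrains ATF4 and AKT, gave 6.83, 7.64 and 6.73 against 9.22 and 8.36 (1.72, adjusted p = 0.16). Jdp2, a repressor of the AP-1 family, gave 6.97, 7.11 and 6.94 against 7.64 and 7.77 (0.70, adjusted p = 0.0668). In these 3 genes every knockout array lay above every wild-type array, and knockout array 1 was the higher of the pair in Nupr1 and Trib3 only. Atf4 itself stood 0.97 higher and is a gene of chromosome 15, and its relative Atf5 stood 0.74 higher. Ddit3, which encodes the stress factor CHOP, stood 0.58 higher and Chac1, an enzyme that degrades glutathione, 1.03 higher.

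Enzymes of amino acid synthesis lay higher as well. Asns, asparagine synthetase, gave 10.43, 10.81 and 10.50 in wild type and 11.59 and 11.31 in knockout (log2 change 0.87, adjusted p = 0.111). Gpt2, the mitochondrial alanine aminotransferase, gave 7.90, 7.87 and 7.82 against 8.94 and 8.51 (0.86, adjusted p = 0.0896). The groups did not overlap in either gene. Serine synthesis followed with smaller gaps: Phgdh, its first enzyme, stood 0.41 higher, Psph, its last, 0.41 and Psat1, the middle step and a gene of chromosome 19, 0.30, each with separate arrays. Cth, which makes cysteine from cystathionine, differed between the knockout clones, at 9.76 and 8.70, and both lay above the wild-type range of 8.27 to 8.35.

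Transporters of amino acids were less uniform. Slc38a2, a sodium-coupled carrier of neutral amino acids on chromosome 15, gave 11.23, 11.02 and 11.07 in wild type and 11.60 and 11.80 in knockout (0.59, adjusted p = 0.102). Slc3a2, the shared heavy chain of several exchangers and a gene of chromosome 19, stood 0.48 higher with separate arrays. For Slc7a5, its large neutral amino acid partner, only knockout array 1, at 11.32, lay above the wild-type range of 10.23 to 10.58, and knockout array 2 stood at 10.47. The kinases that phosphorylate eIF2 gave small changes, with Eif2ak3 at 0.16 and Eif2ak4 at -0.04, the only well-expressed member below 0. Jdp2, Nupr1, Gpt2, Slc38a2, Atf5 and Asns were named by rule, and the other members of this list after their values were seen.

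**Figure D4:**
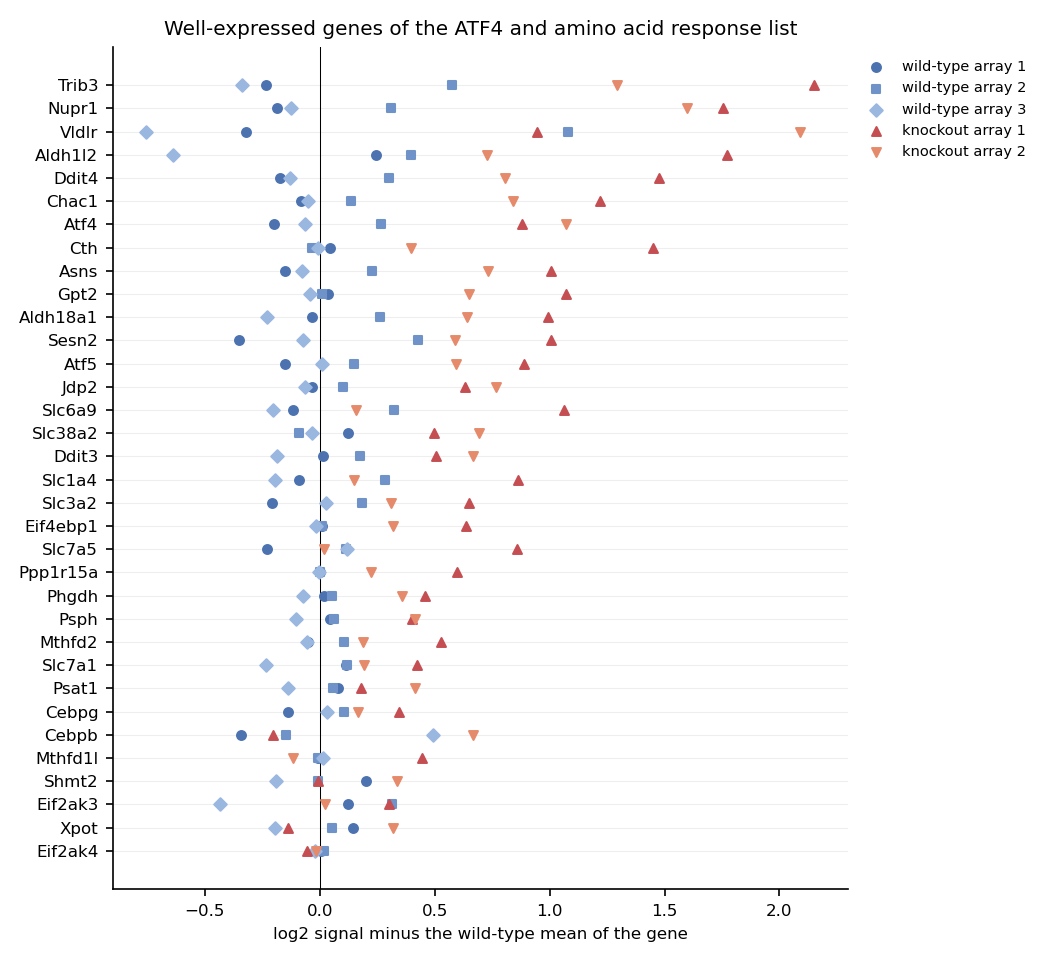
Log2 signal minus the gene's wild-type mean for the 34 well-expressed members of the ATF4 and amino acid response list, ordered by change. Blue symbols are wild-type arrays and red and orange symbols knockout arrays; 33 of the 34 genes have a mean change above 0, and Trib3 and Nupr1 at the top lie 1.72 and 1.68 higher in knockout.

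Targets of p53 also lay mostly higher. The transcription factor p53 answers DNA damage and other stress by raising genes for arrest, repair, death and metabolism, and several of these genes answer other stress factors as well. Of 22 well-expressed members 19 lay higher and 3 lower, at a median of 0.53 on the log2 scale, and 72.7% had separate arrays, beside 37.3% of all well-expressed genes, 14 of them higher and 2 lower. None passed the test, with adjusted p from 0.0927 to 0.977. Without chromosomes 15, 18 and 19 the median of 21 members was 0.50. Ddit4 and Sesn2 belong to this list and to the amino acid response list.

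Among the members, Polk, a DNA polymerase that copies past lesions, gave 6.60, 6.85 and 6.99 in wild type and 7.80 and 7.85 in knockout (log2 change 1.01, adjusted p = 0.0927). Cd82, a tetraspanin that curbs cell migration, gave 8.35, 9.06 and 8.53 against 9.84 and 9.62 (1.08, adjusted p = 0.131). Ephx1, an epoxide hydrolase of detoxification, gave 7.54, 7.88 and 6.18 against 9.91 and 9.70 (2.61, adjusted p = 0.133). The arrays separated in all 3, although wild-type array 3 of Ephx1 lay well below the other two. Ak1, an adenylate kinase, stood 1.65 higher, Ddit4, an inhibitor of mTOR, 1.14 and Trp53inp1, a cofactor of p53 and autophagy, 1.36 higher, each with separate arrays. Polk, Ddit4 and Trp53inp1 had wild-type means of 6.81, 6.77 and 6.82 and count as well-expressed only through their knockout values. Mdm2, the ubiquitin ligase that limits p53, gave 8.12, 7.75 and 7.74 against 8.85 and 8.17. Dusp14, a phosphatase, and the stress sensor Sesn1 stood at -0.47 and -0.31 with both knockout arrays below wild type, and were named after their values were seen. The tested list reached beyond well-expressed genes: 18 of 36 tested members had both knockout arrays higher and 3 both lower, beside 13.2% and 15.3% of all tested genes.

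Well-expressed collagen, basement membrane and integrin genes lay mostly higher in knockout, while medians that took in the dimmer members as well lay near 0. Over all tested members the median was 0.04 for 44 collagen chains (28 higher and 16 lower), 0.02 for laminins and basement membrane (12 and 12) and -0.02 for integrins (12 and 18). For all tested genes it was -0.03 (7240 higher and 9561 lower). Fibrillar collagens carry the strength of the matrix, type IV collagen and laminins form the sheet beneath epithelia, and integrins are the receptors by which cells hold both. Of 17 well-expressed collagen chains 15 lay higher and 2 lower, and their median on the log2 scale was 0.55. The arrays of 8 were separate, all higher (47.1% against 37.3% of well-expressed genes). Col4a2, a chain of basement membrane collagen, gave 7.485, 8.001 and 7.854 in wild type and 9.01 and 9.14 in knockout (1.30 ± 0.255 SE, adjusted p = 0.131). Col4a1, its partner from the adjacent gene, stood 1.29 higher, and Col5a2 and Col5a1, which set the width of collagen fibrils, 1.11 and 0.98 higher. Col6a3, a chain of beaded microfibrils, stood 0.91 higher with separate arrays. No well-expressed collagen gene passed the test.

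Wild-type arrays differed for this class. The median collagen chain on wild-type array 1 lay 0.59 below the gene's mean over 7 arrays, that on wild-type array 3 lay at -0.33 and that on wild-type array 2 at 0.05, and the list's median change was 0.42 without wild-type array 1 and 0.79 without wild-type array 2. In Col3a1, a fibrillar collagen named after its values were seen, knockout array 1 at 10.63 lay below wild-type array 2 at 10.71, while wild-type arrays 1 and 3 stood at 9.06 and 9.08.

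Enzymes that fold and crosslink collagen followed with smaller values. Of 27 well-expressed members 21 lay higher and 6 lower, with a median of 0.34, and 11 were separate and higher against 1 lower (40.7% and 3.7%, beside 21% and 16.3% of well-expressed genes). Pcolce2, an enhancer of procollagen cleavage, gave 8.22, 9.16 and 8.22 in wild type and 10.16 and 10.35 in knockout (1.72, adjusted p = 0.11). Plod2, a lysyl hydroxylase that prepares crosslinks, was deposited at one equal value, 8.18, on all 3 wild-type arrays and stood 0.97 higher in knockout, its relative Plod1 0.86 and P4ha1, a prolyl hydroxylase, 0.46 higher. The arrays separated in each of these 4 genes, and the list's median was 0.20 without knockout array 2. Laminins and basement membrane genes had a median of 0.37 over 12 members, which include the type IV collagens, and 0.24 without wild-type array 1, with the laminin chains Lamb1 and Lamc1 at 0.48 and 0.55 higher.

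Integrin chains were not uniform. Over 10 well-expressed members of the integrin list the median was 0.49, with 6 separate and higher and 1 lower (70% separate, beside 37.3% of well-expressed genes), and it was 0.30 without wild-type array 1. Itga5, the fibronectin receptor chain, a gene of chromosome 15, gave 8.30, 9.08 and 8.99 in wild type and 10.35 and 10.41 in knockout (1.59 ± 0.234 SE, adjusted p = 0.0784). Itgb5, a partner of the alpha v chain, gave 9.47, 9.73 and 9.98 against 10.85 and 10.84 (1.12 ± 0.166 SE, adjusted p = 0.0798). Itgb3, another partner of alpha v and a known tenascin-C receptor chain, gave 6.65, 7.20 and 6.20 against 7.76 and 8.65 (1.52, adjusted p = 0.188). Its wild-type mean, 6.68, lay below the limit for well-expressed genes. Every knockout array lay above every wild-type array in Itga5, Itgb5 and Itgb3, whereas Itgb1, the common beta chain, stood at 0.14 with overlapping arrays. Itgbl1, a secreted integrin-like protein, stood at -0.99 with both knockout arrays lower.

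Adhesion and matricellular genes were mixed around these receptors. Of 32 focal adhesion genes 19 lay higher and 13 lower, with a median of 0.05, beside 0.01 over all well-expressed genes, and it ranged from 0.01 to 0.16 as single arrays were left out. Members of smallest p lay higher: the tensins Tns1 and, on chromosome 15, Tns2, which tie integrins to actin, stood 1.28 and 1.61 higher (adjusted p = 0.0686 and 0.0927), the LIM protein gene Csrp1 0.80, and Vcl, which encodes vinculin, 0.69. In the elastic fibre and matricellular list 16 of 24 lay higher, with a median of 0.50, and 0.27 without wild-type array 1. Ccn4, a secreted matricellular protein gene of chromosome 15, gave 8.02, 8.62 and 8.22 in wild type and 9.98 and 9.43 in knockout (1.42, adjusted p = 0.097), and Fn1, fibronectin, stood 0.54 higher with separate arrays. Emilin2, an elastic fibre glycoprotein, gave 9.36, 9.64 and 8.98 against 7.35 and 8.27 (-1.52, adjusted p = 0.136), with both knockout arrays lower.

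**Figure D5:**
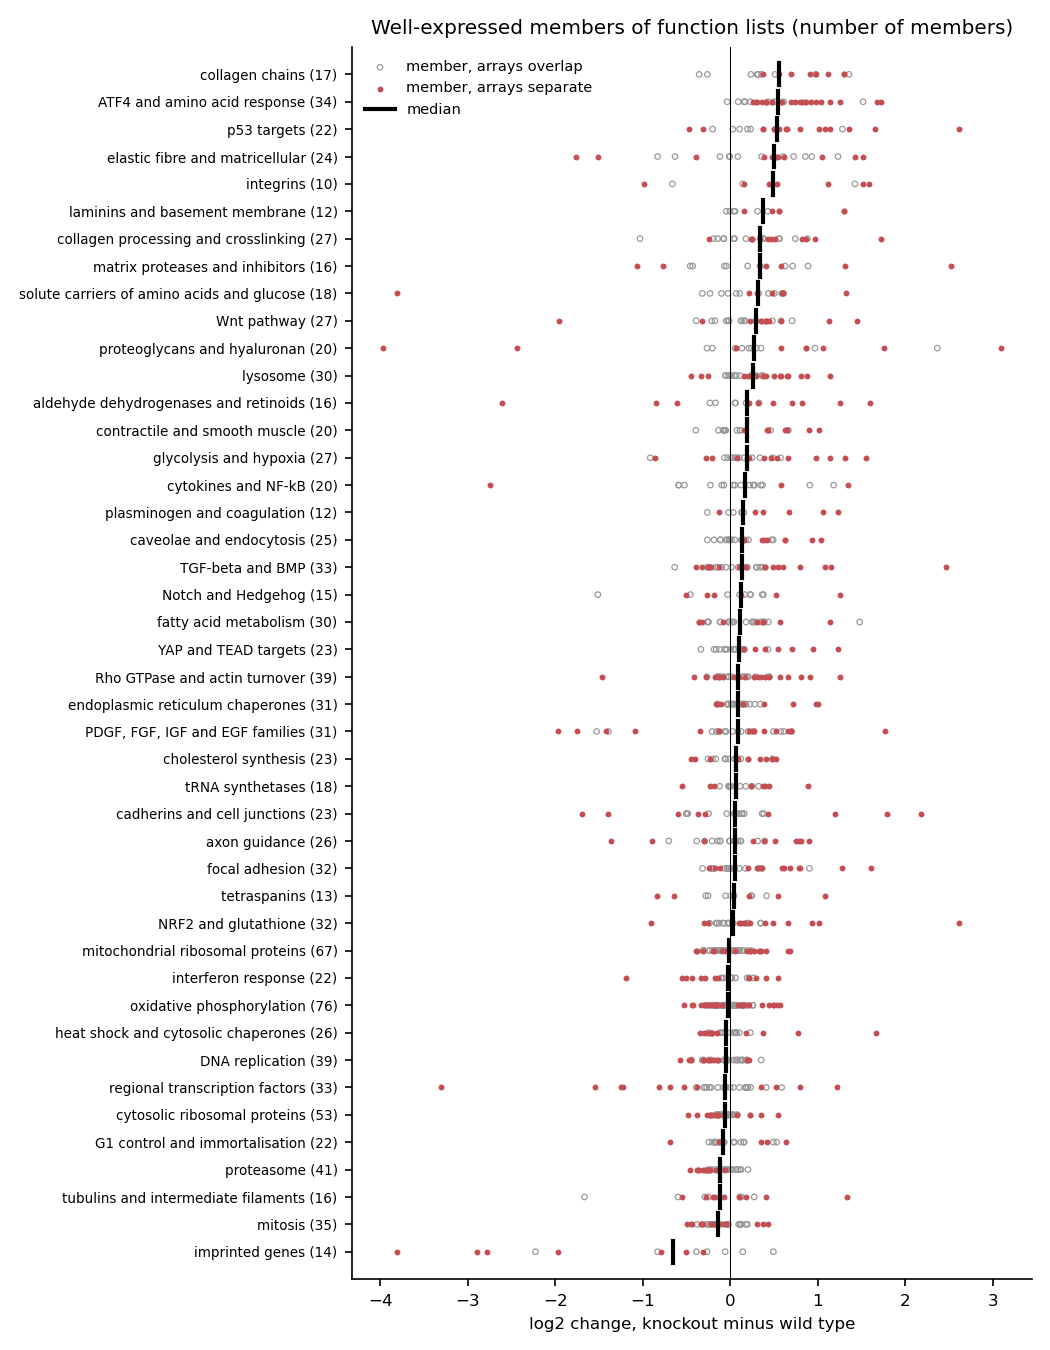
Log2 change of each well-expressed member of the 44 function lists with at least 10 such members, ordered by list median (black bars); the number of members is in brackets. Red points have both knockout arrays on one side of all wild-type arrays and open points do not; collagen chains (0.55) and the ATF4 list (0.55) lie highest and imprinted genes (-0.65) lowest.

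Lysosomal genes lay higher by a modest amount. Lysosomes degrade proteins, lipids and sugars taken up or recycled by the cell. Of 30 well-expressed members 23 lay higher and 7 lower, with a median of 0.26, and 14 were separate and higher against 3 lower (56.7% separate, beside 37.3% of well-expressed genes). Arsa, a sulfatase gene of chromosome 15, gave 7.19, 7.36 and 6.94 in wild type and 8.29 and 8.33 in knockout (1.14 ± 0.152 SE, adjusted p = 0.0686). Npc2, which hands cholesterol out of the lysosome, stood 0.58 higher, Ctsa, a protective carboxypeptidase, 0.41, Lipa, the acid lipase, on chromosome 19, 0.65 and Hexa, a chain of hexosaminidase, 0.57, all with separate arrays. Npc1, the membrane partner of Npc2 and a gene of chromosome 18, gave 8.11, 7.96 and 8.11 against 7.77 and 7.45 (-0.45, adjusted p = 0.308). The median was 0.24 without chromosomes 15, 18 and 19 and 0.17 without knockout array 1.

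Glycolysis and hypoxia genes differed between the knockout clones. Of 27 well-expressed members 21 lay higher, with a median of 0.19, but the median was 0.00 without knockout array 2 and 0.25 without knockout array 1. Ndrg1, a hypoxia-induced gene of chromosome 15, gave 8.16, 8.58 and 8.60 in wild type and 10.01 and 9.51 in knockout (1.31 ± 0.209 SE, adjusted p = 0.0927). Pfkp, the platelet form of phosphofructokinase, gave 6.86, 7.07 and 7.07 against 9.01 and 8.10 (1.55 ± 0.271 SE, adjusted p = 0.111). With a wild-type mean of 7.002 and a knockdown mean of 6.315, Pfkp counts as well-expressed only through its knockout values. Vegfa, the angiogenic growth factor, stood 0.66 higher. In these 3 genes the arrays separated, and knockout array 1 was the higher of the pair in Ndrg1 and Pfkp.

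Well-expressed imprinted genes lay mostly lower. Imprinted genes are expressed from 1 parental copy, and several of them promote growth of the embryo and fall silent later. Of 14 well-expressed members 12 lay lower and 2 higher, around a median of -0.65 in log2 units, and 7 (50%) had both knockout arrays lower and none both higher, beside 16.3% and 21% of well-expressed genes. Slc38a4, an amino acid transporter expressed from the paternal copy, gave 9.51, 9.78 and 9.38 in wild type and 5.48 and 6.01 in knockout (-3.81 ± 0.518 SE, adjusted p = 0.069); it lay lower although its chromosome, 15, ran higher. Mest, a paternally expressed hydrolase gene, gave 9.05, 9.55 and 7.53 against 6.17 and 5.69 (-2.78, adjusted p = 0.14). Dlk1, a transmembrane regulator of differentiation, gave 11.07, 10.39 and 7.94 against 7.94 and 5.89 (-2.89, adjusted p = 0.337), so that wild-type array 3 and knockout array 1 nearly met at the same level. Its neighbour Meg3, a noncoding RNA of the maternal copy, stood at -0.80 with separate arrays, Peg12 at -0.31 and Plagl1, a zinc finger gene, at -0.83 with overlapping arrays. No well-expressed member passed the test. The only imprinted gene called was one below that limit, Grb10, an adaptor that restrains insulin signalling, which was named after its values were seen and rose (adjusted p = 0.00129), from 4.63, 4.70 and 4.63 in wild type to 11.55 and 10.73 in knockout. Over all 29 tested members 21 lay lower and 8 higher, with a median of -0.19. The median of the well-expressed members was -0.49 without knockout array 1 and -0.79 without knockout array 2.

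Transcription factors of regional identity differed in both directions. Fibroblasts keep a memory of the body site they came from in such genes. Of 33 well-expressed members 14 lay higher and 19 lower, with a median of -0.06, between -0.15 and -0.03 as single arrays were left out, and 4 separate and higher against 8 lower. That is 36.4% separate, near the 37.3% of all well-expressed genes. Nr2f1, an orphan nuclear receptor, gave 8.99, 8.89 and 8.64 in wild type and 5.06 and 6.02 in knockout (-3.30 ± 0.439 SE, adjusted p = 0.0686). Its paralogue Nr2f2 stood at -0.81, Osr1, a zinc finger factor of embryonic mesenchyme, at -1.23, and Sox9, the regulator of cartilage, at -0.38, all with both knockout arrays lower. Foxc2, a forkhead factor of mesenchyme, gave 6.60, 6.88 and 7.14 against 8.58 and 7.61 (1.22, adjusted p = 0.198). Its wild-type values lay on both sides of the limit for well-expressed genes. None of these well-expressed genes passed the test. Below that limit, 1 of the list's 81 tested members was called, and it fell, beside 0.0476% of all tested genes. Hox genes, also genes of regional identity, formed a separate list with only 3 well-expressed members. Of its 37 tested members 4 were called, all higher, beside 0.119% of all tested genes. Separate arrays were higher in 9 and lower in 3, beside 13.2% and 15.3% of all tested genes. Pdgfra, the growth factor receptor that marks many fibroblasts, gave 11.40, 10.98 and 11.17 against 9.50 and 10.04 (-1.42, adjusted p = 0.152), the lowest change of the 11 well-expressed fibroblast markers, of which 8 lay higher.

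Interferon-response genes lay lower more often than higher, most clearly among the dimmer members. Interferons raise sensors and effectors of antiviral defence, many of them through interferon-stimulated response elements in their promoters. Of 53 tested members 37 lay lower and 16 higher, with a median of -0.16 against -0.03 for all tested genes, and 27 had both knockout arrays below wild type and 5 above, beside 15.3% and 13.2% of all tested genes. Of the 22 well-expressed members 11 lay higher and 11 lower, and 8 were separate and lower (36.4%, beside 16.3% of well-expressed genes) against 4 higher (18.2%, beside 21%), with a median of -0.02, which was 0.03 with the arrays centred on their medians. Rtp4, an interferon-induced chaperone-like protein below the well-expressed limit, was the only member called and fell in knockout (-2.10 ± 0.187 SE, adjusted p = 0.0287); at 7.12, 6.66 and 7.25 in wild type and 4.79 and 5.04 in knockout, its knockout values lay below the array medians.

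Windows before the starts of 3 members that lay lower are shown because they hold the core letters of that response element, GAAA followed after a gap of 2 bases by another GAAA. Matches on either strand are in capitals. They come from the same RefSeq table and assembly as above, with 250 bases each: Stat2 at chr10:128270248-128270497 (plus strand), Gbp7 at chr3:142530086-142530335 (plus strand) and Ifit1 at chr19:34640639-34640888 (plus strand).
Stat2: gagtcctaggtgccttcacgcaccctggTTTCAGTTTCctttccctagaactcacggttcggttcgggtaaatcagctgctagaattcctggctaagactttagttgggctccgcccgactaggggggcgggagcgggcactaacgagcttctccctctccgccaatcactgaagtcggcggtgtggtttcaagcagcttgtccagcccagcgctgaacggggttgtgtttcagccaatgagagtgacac
Gbp7: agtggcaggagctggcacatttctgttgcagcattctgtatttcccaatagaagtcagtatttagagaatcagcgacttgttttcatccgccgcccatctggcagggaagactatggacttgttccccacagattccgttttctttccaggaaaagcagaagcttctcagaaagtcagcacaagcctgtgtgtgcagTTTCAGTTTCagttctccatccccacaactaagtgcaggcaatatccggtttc
Ifit1: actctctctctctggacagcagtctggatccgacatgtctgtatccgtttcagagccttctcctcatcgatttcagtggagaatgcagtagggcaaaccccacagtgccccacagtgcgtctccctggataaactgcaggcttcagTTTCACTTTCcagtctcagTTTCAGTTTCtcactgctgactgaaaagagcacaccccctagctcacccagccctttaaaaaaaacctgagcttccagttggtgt
The letters were in the window of 11 of 43 members with a sequence (25.6%), against 2.98% of all windows and 3% of tested genes. Of these 11 members 9 lay lower and 2 higher, with a median of -0.40, and the 32 members without a match had a median of -0.11. Both knockout arrays lay below wild type in 8 of the 11 and 13 of the 32, beside 15.3% of all tested genes. They lay above in 0 and 4. The list was made of interferon-response genes, so a high share of matches goes with its choice. A match shows no binding here either, and its part in the differences was not tested.

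The components of the pathway followed. Stat2, a transcription factor of the response, gave 7.76, 7.60 and 7.81 in wild type and 7.03 and 7.30 in knockout (-0.56 ± 0.112 SE, adjusted p = 0.136). Irf9, its DNA-binding partner, gave 7.05, 7.15 and 7.48 against 6.72 and 6.71 (-0.51, adjusted p = 0.242), and Trim25, a ubiquitin ligase that activates RIG-I, stood at -0.29. Every knockout array lay below every wild-type array in these genes. Gbp7, a guanylate-binding protein, and Ifit1, which binds foreign RNA, stood at -1.15 and -1.10 and are not well-expressed, and were named after their values were seen. Among bright members, Ly6e, a surface protein gene of chromosome 15, stood 0.55 higher and Ifnar1, a chain of the receptor, 0.30 higher, both with separate arrays.

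Genes of protein turnover and the cell cycle lay mostly lower, by small amounts; none of the well-expressed members passed the test. Of 41 well-expressed proteasome genes 34 lay lower and 7 higher, with a median of -0.12 on the log2 scale, and 16 (39%) had both knockout arrays lower and none both higher, beside 16.3% and 21% of well-expressed genes. Psma1, a subunit of the core ring, gave 9.97, 10.06 and 10.12 in wild type and 9.57 and 9.80 in knockout (-0.36, adjusted p = 0.221), and Psmd6 and Psmc2, subunits of the cap, stood at -0.36 and -0.47. The median was -0.08 without knockout array 1, -0.18 without knockout array 2 and -0.07 with the arrays centred on their medians. Cytosolic ribosomal protein genes had a median of -0.06, with 41 of 53 lower, and with the arrays centred on their medians that value was -0.02.

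Mitosis genes had a median of -0.15, with 26 of 35 lower and 12 of these separate (34.3%, beside 16.3% of well-expressed genes), and 3 separate and higher (8.57%, beside 21%). Kif2c, a microtubule-depolymerising kinesin, gave 9.79, 9.91 and 9.76 in wild type and 9.33 and 9.42 in knockout (-0.45 ± 0.0842 SE, adjusted p = 0.127). Ccna2, which encodes cyclin A, and Plk1, a mitotic kinase, both stood at -0.34, and the arrays did not overlap. Nusap1, a spindle protein gene, Tpx2, an activator of Aurora A, and Racgap1, a cytokinesis factor gene of chromosome 15, stood 0.43, 0.30 and 0.37 higher. The list's median was -0.04 without knockout array 1 and -0.18 without knockout array 2. DNA replication genes had a median of -0.05, between -0.11 and 0.00 as single arrays were left out, with 25 of 39 lower, among them Rrm1, the large chain of ribonucleotide reductase, at -0.30.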

How the data were processed

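Total RNA of 7 clones was measured on Affymetrix whole-transcript arrays, 1 array per clone. The deposited values are log2 signals per probe set, made by the authors with R 2.8.0 and affy per the submitters' processing notes; the summary method is not given in the sources used here. Probe sets were named through GEO's platform annotation: 1321 carried several symbols and 11799 were not listed. limma 3.58.1 in R 4.3.3 fitted a mean per group (wild type 3, knockout 2, knockdown 2), and genes above the 25th percentile on at least 2 arrays were tested with Benjamini-Hochberg adjustment (threshold 0.05) after a check on simulated data. The number of arrays limits the precision. Named genes were Tnc, the called well-expressed genes, the 15 mid-size genes of smallest p each way and up to 6 well-expressed members of smallest p per list. Others were named after their values were seen, and the members and all 58 lists were chosen with earlier results of these data known. Alternatives covered scaling, filter, array weights, prior, probe set choice, the replicate block and each array left out.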

Additional observations from a re-analysis of the deposited data

How the results depend on the processing

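Of 19 alternatives, the 28 calls became 71 with centred arrays (61 higher and 10 lower, against 20 and 8), 45 with quantile normalization, 79 with a stricter filter, 70 with a trend and robust prior, 6 with only the knockout and wild-type arrays, 17 without chromosomes 15, 18 and 19 (chosen after seeing the data) and 3 to 77 with 1 array left out. The 8 well-expressed calls became 32, 15, 40, 28, 3 and 3 in the same order, 35 when only well-expressed genes were tested, and 0 to 32 with 1 array left out. Without knockout array 2 and knockdown array 2 together, 1 gene was called and 0 of them well-expressed, with 2503 at an unadjusted limma p under 0.05, and 750 mid-size genes were separate. With 1 array left out this was 463 to 751 against 474, the highest without knockout array 2. Centring gave 443 higher and 88 lower.

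Tnc stayed lower in all: -2.95 and uncalled without a filter (adjusted p = 0.0539) or with only the knockout and wild-type arrays (0.08), -3.17 without knockout array 2 and knockdown array 2 together, and -3.17 to -2.72 with 1 array left out. Arrays with the same number deviated from their group means with correlations of -0.03, -0.07, -0.04 and 0.20, so the numbers were not taken to pair samples. With the replicate number as a block, 2 genes were called, 0 of them well-expressed, 1700 had an unadjusted limma p under 0.05, and Tnc stood at -2.87. The causes of these shifts were not tested.

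Of the genes named, Eif2ak3 turned to -0.057 under the replicate block and ran from -0.057 to 0.318 with 1 array left out, and Eif2ak4 turned to 0.01 with centred arrays. As deposited the median over all tested genes was -0.03, and 0.02 after centring.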

Other observations

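Equal values recurred in the deposited table. Among well-expressed genes, 701 (9.69%) had equal values on at least 2 of the wild-type arrays and 46 on all 3, and of these 46 only Plod2 was a mid-size gene with separate arrays. None of the 8 well-expressed calls had equal values on 2 wild-type arrays.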
